A study of Mus musculus with 36 samples.

Results

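The response of nephron progenitor cells (NPCs) to high CHIR was measured in cells that kept β-catenin. The members were 8 libraries of the 36 in the series, taken by their group labels. They were the control libraries of the experiment that removed β-catenin, 4 in high and 4 in low CHIR. Primary NPCs from late-gestation mouse kidneys were held in low CHIR, lipofected, kept in low CHIR for a day so that protein could turn over, and then cultured for a further day in low (1.25 µM) or high (5 µM) CHIR. A pair of lines was used, with 2 libraries for each line and dose. The Cre-neg cells had the genotype B-catenin_c_c, in which both copies of *Ctnnb1* can be deleted by Cre, and received no Cre. The Cas9 cells had the genotype Cas9-eGFP, which produce Cas9 and GFP throughout, and received an sgRNA against GFP. Cells of both lines were sorted for an mCherry reporter mRNA before RNA was isolated, so the libraries describe cells that took up the lipofected RNA. The embryos were not separated by sex, and they were on a Swiss Webster or C57Bl/6 background that was not given per library. The labels give 2 replicates per group and do not say whether they came from separate litters, so p-values measure the spread between these libraries.

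CHIR inhibits glycogen synthase kinase 3, the kinase that marks β-catenin for destruction. Stabilized β-catenin enters the nucleus and binds Tcf and Lef proteins on DNA, which turns canonical Wnt target genes on. In the embryonic kidney, NPCs either renew themselves under transcription factors such as *Six2* and *Osr1* or, on a stronger Wnt input, turn on *Wnt4*, *Lef1* and *Jag1* and form the epithelial renal vesicle that becomes a nephron. The comparison of high with low CHIR addressed which genes followed the stronger input.

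The values are normalized counts, that is reads on a gene divided by a size factor for the library. The libraries held 18092866 to 27838106 reads on genes, with a median of 20662496. Of 26863 genes in the table, 16649 had a mean of at least 10 normalized counts over the 8 libraries and were tested with limma on log2(normalized count + 1), with the line as a block. This scale understates the change of low genes. A gene was called when its adjusted p (Benjamini-Hochberg) was under 0.05 and its log2 fold change was at least 1 in either direction, and "rose" and "fell" are used only of called genes. Values for the 4 libraries at a dose are given in the order Cre-neg replicate 1, Cre-neg replicate 2, GFP sgRNA replicate 1 and GFP sgRNA replicate 2.

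High CHIR raised 575 genes (3.45% of the genes tested) and lowered 771 (4.63%). The 4 high and the 4 low CHIR libraries did not overlap for 512 of the genes that rose and for 666 of those that fell. Over all genes tested, the high CHIR libraries lay wholly above the low for 9.32% and wholly below for 10.8%. The change was at least 8-fold for 129 of the genes that rose and for 125 of those that fell. The median log2 fold change was 2.09 over the genes that rose and -1.71 over those that fell, against 0.01 over all genes tested. The first principal component held 46% of the variance and separated the doses, with the low CHIR libraries at -56.54 to -52.01 and the high CHIR libraries at 49.45 to 61.56. The second held 17.7% and set replicate 2 of the Cre-neg line apart at both doses, at -53.53 and -58.14 against -0.65 to 33.37 for the other libraries. Without these 2 libraries, 609 genes were higher and 713 lower, and 485 and 635 of these were among the genes called with all 8.

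The cells expressed NPC genes in low CHIR, and most of these genes fell in high CHIR. Of 15 tested genes linked to NPC self-renewal, 8 fell and 1 rose, against 4.63% and 3.45% of all genes tested, and the median log2 fold change was -1.02. The study singled out some of these genes, such as *Cited1*, *Tmem100*, *Meox2* and *Osr1*, with the use of these samples. Their direction is therefore not independent evidence. *Cited1*, a transcriptional coregulator of uninduced NPCs (chromosome X, 102247381 to 102252181, GRCm38), had 8722, 4402, 5978 and 9802 normalized counts in low CHIR and 34.1, 64.3, 37.5 and 94.8 in high CHIR. No high CHIR library came near the low CHIR libraries, and the log2 fold change was -7.00 (SE 0.33, adjusted p = 5.56e-07 from limma). *Osr1*, a transcription factor of kidney mesenchyme, had 1428, 1507, 943 and 1399 counts in low CHIR and 115, 79.9, 71.9 and 138 in high CHIR. The groups were again apart (log2 fold change -3.72, SE 0.24, adjusted p = 2.61e-06). The homeobox gene *Meox2* (-4.71 ± 0.21, adjusted p = 4.4e-07), *Tmem100*, which encodes a small membrane protein (-4.14 ± 0.18, adjusted p = 4.4e-07), the homeobox gene *Meox1* (-3.44 ± 0.59, adjusted p = 0.00271) and *Crym*, a thyroid hormone binding protein (-2.86 ± 0.35, adjusted p = 0.0003), fell as well, all with groups that did not overlap.

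The central regulators *Six2* and *Eya1* fell less. *Six2*, the homeodomain factor that keeps NPCs undifferentiated, had 3454, 1941, 1731 and 2373 counts in low CHIR and 977, 407, 1097 and 1336 in high CHIR. Its 4 high CHIR libraries were all below the 4 low ones, and its log2 fold change of -1.39 (SE 0.33, adjusted p = 0.0172) left 954 ± 394 counts (mean ± SD, n = 4) in high CHIR. *Eya1*, the phosphatase that acts with *Six2*, was just past the threshold of 1 (-1.02 ± 0.17, adjusted p = 0.00196). It came under 1 in size, at -0.92 to -0.96, without replicate 2 of the Cre-neg line at either dose, of the GFP sgRNA line in low CHIR, or without GFP sgRNA replicate 1 in high CHIR, with an adjusted p of at most 0.0108. *Pax2*, a paired-box factor needed for NPCs and for the early nephron, was the member that rose, from 159, 168, 113 and 154 counts to 833, 865, 1039 and 1041 (log2 fold change 2.67, SE 0.17, adjusted p = 3.24e-06). Members that were not called included *Wt1* (-0.91 ± 0.17, adjusted p = 0.00552), whose libraries did not overlap and which passed the call, at -1.06, without GFP sgRNA replicate 2 in low CHIR. *Sall1* (0.66 ± 0.16, adjusted p = 0.0177) and *Itga8* (0.21 ± 0.17, adjusted p = 0.462) were not called either, nor were *Gdnf*, *Hoxa11* and *Hoxd11*.

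Most tested genes of the early nephron rose. Of 16 tested, 10 rose and none fell, against 3.45% and 4.63% of all genes tested, with a median of 2.19. The study named some of them, such as *Wnt4*, *Jag1*, *Emx2* and *Ovol1*, with the use of these samples. Their direction is therefore not independent evidence. *Wnt4*, the ligand that drives NPCs into the renal vesicle (chromosome 4, 137277489 to 137299726), had the largest rise of any gene named by the rule for largest changes. It had 7.77, 23.8, 10.9 and 8.66 counts in low CHIR and 5798, 5029.6, 5135 and 5973 in high CHIR, a log2 fold change of 8.76 (SE 0.29, adjusted p = 6.01e-08). The doses were far apart in every library. *Jag1*, the Notch ligand that patterns the renal vesicle, went from 412, 418, 746 and 579 counts to 11842, 8707, 14833 and 13848 (log2 fold change 4.53, SE 0.14, adjusted p = 5.68e-08). *Lef1*, a DNA-binding partner of β-catenin and itself a Wnt target, had 82.2, 85.2, 124 and 68.2 counts in low CHIR and 1089.9, 1568, 1407 and 913 in high CHIR (log2 fold change 3.78, SE 0.23, adjusted p = 2.2e-06). *Lhx1*, a LIM homeodomain factor of the renal vesicle, rose with more spread, from 109, 47.6, 156 and 141 to 485, 1099, 803 and 477 counts (log2 fold change 2.69, SE 0.37, adjusted p = 0.000603). For each of these genes the lowest high CHIR library was above the highest low CHIR library.

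Among the other early nephron genes that rose, the homeobox gene *Emx2* had the widest spread. It had 0, 9.16, 20.9 and 15.2 counts in low CHIR and 106, 329.9, 244 and 175 in high CHIR (log2 fold change 4.67, SE 0.73, adjusted p = 0.00149), and the doses did not overlap. *Bmp2*, a bone morphogenetic protein, rose by 3.67 ± 0.19, the zinc finger factor *Ovol1* by 3.75 ± 0.38 and the homeobox gene *Uncx* by 1.48 ± 0.26 on the log2 scale. The cadherins *Cdh6*, of the early proximal nephron, and *Cdh4* rose by 2.65 ± 0.30 and 1.73 ± 0.12. *Pax8* (0.40 ± 0.22, adjusted p = 0.254), *Ccnd1* (0.48 ± 0.17, adjusted p = 0.0892), *Dll1* (-0.51 ± 0.48, adjusted p = 0.519) and *Pou3f3* did not pass the test, and their libraries overlapped between doses. *Fgf8*, a growth factor of the renal vesicle, was under the filter, with 0, 0.916, 0 and 0 counts in low CHIR and 10.1, 10.4, 8.99 and 14.4 in high CHIR. Its 48 reads in high CHIR against 1 in low CHIR give a ratio of 42.5 with a 95% exact interval of 7.27 to 1710, which covers counting error only.

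**Figure D1:**
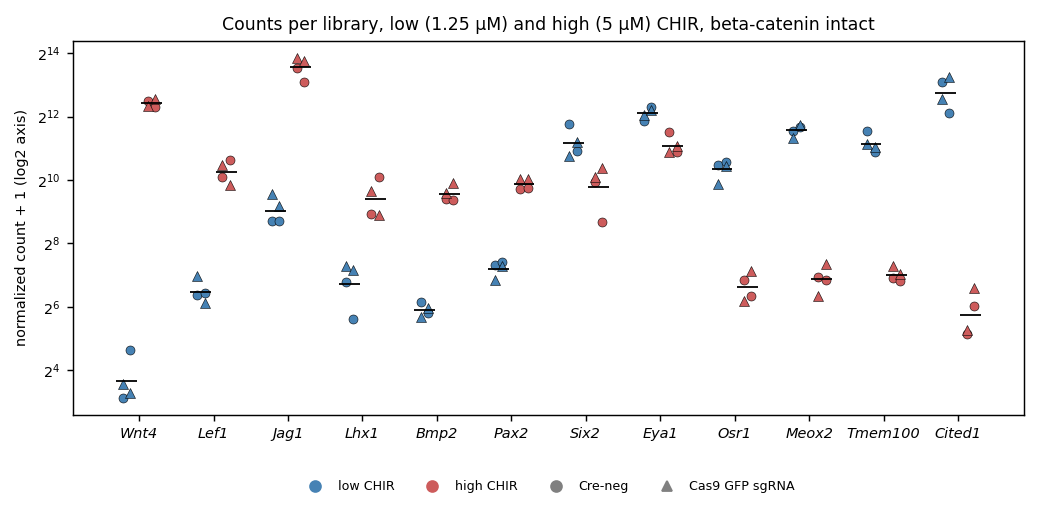
Normalized count + 1 (log2 axis) of 12 genes in each of the 8 libraries, with low CHIR in blue and high CHIR in red, Cre-neg as circles and GFP sgRNA as triangles. Black lines are means on the log2 scale. *Wnt4* and *Jag1* stand far higher in high CHIR and *Cited1* far lower, while *Six2* and *Eya1* shift by little more than the spread of the libraries.

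Direct feedback targets of canonical Wnt signaling are genes that many tissues turn on when β-catenin is stabilized and that mostly restrain the pathway. Of 16 tested, 10 rose and 3 fell, against 3.45% and 4.63% of all genes tested, with a median of 1.51. *Axin2*, a scaffold of the destruction complex, had 115, 64.1, 74.5 and 48.7 counts in low CHIR and 192, 325, 191 and 187 in high CHIR (log2 fold change 1.58, SE 0.27, adjusted p = 0.00249). The doses did not overlap, but the rise was small beside that of *Wnt4*. The Dishevelled antagonists *Nkd1* (2.55 ± 0.27, adjusted p = 0.000115) and *Nkd2* (2.38 ± 0.30, adjusted p = 0.00035), the receptor ubiquitin ligase *Znrf3* (1.32 ± 0.12, adjusted p = 4.06e-05), the membrane inhibitor *Apcdd1* (2.58 ± 0.37, adjusted p = 0.0008), the receptor *Tnfrsf19* (2.66 ± 0.21, adjusted p = 1.11e-05) and the Tcf/Lef factor *Tcf7* (1.44 ± 0.20, adjusted p = 0.000749) rose too. *Notum*, an enzyme that inactivates Wnt ligands, and *Sp5*, a transcription factor, were near 0 in low CHIR. *Sp5* had 0, 0, 0 and 2.16 counts in low CHIR and 35.0, 44.6, 36.0 and 40.2 in high CHIR, and its 171 reads against 2 give a ratio of 75.7 (95% exact interval 20.6 to 630, counting error only). *Notum* had 0, 0.916, 0.994 and 1.08 counts and 38.7, 49.8, 35.2 and 47.9, a ratio of 55.2 (interval 18.6 to 270).

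Members of the same list fell. *Dkk1*, a secreted inhibitor of the Wnt co-receptor, had 1758, 3257, 5886 and 2154 counts in low CHIR and 211, 655, 1152 and 478 in high CHIR (log2 fold change -2.47, SE 0.42, adjusted p = 0.0028). *Lgr5*, a receptor for R-spondins, went from 218, 239, 328 and 588 to 61.7, 89.2, 66.7 and 79.4 counts (log2 fold change -2.09, SE 0.27, adjusted p = 0.000451). The doses did not overlap for either gene. *Myc*, a growth regulator and Wnt target of gut epithelium, fell from 1625, 1504, 1132 and 1446 to 932, 459, 815 and 498 counts (log2 fold change -1.13, SE 0.23, adjusted p = 0.00734), though the change came to -0.90 without Cre-neg replicate 2 in high CHIR. *Bambi* (-0.06 ± 0.22, adjusted p = 0.894), *Wif1* (1.02 ± 0.48, adjusted p = 0.186) and *Ccnd1* were not called. *Rnf43* was under the filter, at 4.44, 0, 5.96 and 0 counts in low CHIR and 20.3, 7.26, 13.5 and 7.66 in high CHIR.

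The promoters of feedback genes that moved in opposite directions are shown because they hold the letters that Tcf and Lef proteins bind, beside those of the genes with the largest rise and fall among NPC and early nephron genes, which do not. Each sequence is the 250 bases before the RefSeq transcription start on GRCm38.p6, on the gene's strand, with any match to CTTTGAA or CTTTGAT, searched on both strands, in capitals.
Sp5 (chr2:70474673-70474922, + strand): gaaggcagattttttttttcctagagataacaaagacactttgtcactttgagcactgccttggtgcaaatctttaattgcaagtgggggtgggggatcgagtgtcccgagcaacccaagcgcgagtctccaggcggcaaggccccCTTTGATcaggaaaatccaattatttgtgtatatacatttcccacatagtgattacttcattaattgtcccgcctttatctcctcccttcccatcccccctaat
Dkk1 (chr19:30549497-30549746, - strand): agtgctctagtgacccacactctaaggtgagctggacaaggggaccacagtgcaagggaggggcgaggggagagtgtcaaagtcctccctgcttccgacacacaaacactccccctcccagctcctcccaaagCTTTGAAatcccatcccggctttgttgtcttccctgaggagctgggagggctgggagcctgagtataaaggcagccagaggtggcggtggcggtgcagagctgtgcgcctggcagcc
Wnt4 (chr4:137277385-137277634, + strand): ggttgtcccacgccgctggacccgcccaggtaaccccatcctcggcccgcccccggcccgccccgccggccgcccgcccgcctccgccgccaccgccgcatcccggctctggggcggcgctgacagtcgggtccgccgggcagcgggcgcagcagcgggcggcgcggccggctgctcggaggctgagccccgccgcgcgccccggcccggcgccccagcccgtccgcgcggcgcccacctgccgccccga
Cited1 (chrX:102252182-102252431, - strand, the first of 3 RefSeq starts): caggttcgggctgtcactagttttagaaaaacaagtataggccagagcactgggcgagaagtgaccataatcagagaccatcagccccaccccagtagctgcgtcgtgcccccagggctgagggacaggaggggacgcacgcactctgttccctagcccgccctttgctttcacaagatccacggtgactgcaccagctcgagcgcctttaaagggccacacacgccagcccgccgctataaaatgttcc
The match began 104 bases before the start in *Sp5*, which rose, and 117 bases before it in *Dkk1*, which fell. Neither the *Wnt4* window nor any of the 3 *Cited1* windows held one. The gene positions given earlier are from GENCODE, and by them most of the *Wnt4* window lies inside the gene. RefSeq windows were matched by symbol for 10420 of 16643 tested genes with a single symbol, and 655 of those (6.29%) held a match. Of 392 matched genes that rose, 28 (7.14%) held one, and of 540 that fell, 31 (5.74%), so both shares lay near that of all tested genes. Of the 10 Wnt feedback genes with a window, *Sp5*, *Dkk1* and *Tnfrsf19* held one. Binding was not measured in these libraries.

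Receptors and nuclear partners of the pathway moved in both directions, while the core of the pathway did not pass the test. Of 32 tested machinery genes, 2 rose and 3 fell, against 3.45% and 4.63% of all genes tested, and the median was -0.15. *Ctnnb1*, which encodes β-catenin, had 3880.1, 3097, 2521 and 3397 counts in low CHIR and 2423, 2207, 2632 and 2701 in high CHIR, with libraries that overlapped (log2 fold change -0.36, SE 0.15, adjusted p = 0.137). The Frizzled receptor *Fzd6* rose from 11.1, 7.33, 7.95 and 13.0 to 149, 223, 125 and 105 counts (log2 fold change 3.78, SE 0.33, adjusted p = 2.94e-05), and *Fzd10* rose from 3.33, 0.916, 5.96 and 2.16 to 46.9, 23.9, 30.0 and 83.3 (log2 fold change 3.51, SE 0.53, adjusted p = 0.00124). *Fzd4* fell (-2.03 ± 0.27, adjusted p = 0.000452). *Tcf7l1*, the Tcf factor that mostly represses, fell from 2030, 1280.1, 1208 and 1486 to 352, 438, 357 and 402 counts (log2 fold change -1.93, SE 0.17, adjusted p = 3.02e-05). *Lef1* and *Tcf7* had risen, so the members of the Tcf/Lef family moved in both directions, and *Tcf7l2*, at -0.91 ± 0.18, adjusted p = 0.00659, was not called with all 8 libraries but was without either Cre-neg replicate 1 (-1.01 and -1.08). The Groucho corepressor *Tle2* was called lower (-1.13 ± 0.23, adjusted p = 0.00719), a call lost without GFP sgRNA replicate 1 in low (-0.93) or high CHIR (-0.92). *Apc*, *Axin1*, *Gsk3a*, *Gsk3b* and the Dishevelled genes were not called, with log2 fold changes from -0.23 (*Axin1*) to 0.51 (*Dvl2*).

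Notch genes moved apart from one another. Of 13 tested, 3 rose and 2 fell, against 3.45% and 4.63% of all genes tested, with a median of 0.03. Beside the ligand *Jag1*, the Notch effectors *Heyl* and *Hey1* rose. *Heyl* had 30.0, 36.6, 73.5 and 13.0 counts in low CHIR and 678, 608, 879 and 539 in high CHIR (log2 fold change 4.33, SE 0.42, adjusted p = 5.6e-05), and *Hey1* went from 468, 259, 553 and 391 to 2123, 2121, 2026 and 2098 (log2 fold change 2.38, SE 0.20, adjusted p = 2.06e-05). The related effector *Hes1* fell, from 1509, 1009, 992 and 1218 to 253, 294, 713 and 512 counts (log2 fold change -1.52, SE 0.26, adjusted p = 0.00296). Its fall was -2.17 in the Cre-neg line and -0.86 in the GFP sgRNA line, a difference of 1.31 ± 0.36 that was not called over all genes (adjusted p = 0.903). *Lfng*, a glycosyltransferase that tunes Notch receptors, fell (-1.71 ± 0.33, adjusted p = 0.00517). The receptors *Notch1* to *Notch4* were not called, with log2 fold changes from -0.63 to 0.17.

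Of 16 tested BMP genes, 6 rose and 1 fell, against 3.45% and 4.63% of all genes tested. The other 9 were not called, and the median was 0.73. The ligands *Bmp2* and *Bmp7* rose, and *Bmp7*, which NPCs need to renew, had 88.8, 26.6, 33.8 and 23.8 counts in low CHIR and 512, 221, 510.3 and 382 in high CHIR (log2 fold change 3.34, SE 0.42, adjusted p = 0.000327). The receptor *Bmpr1b* (2.90 ± 0.22, adjusted p = 1.01e-05), the antagonist *Grem1* (2.21 ± 0.38, adjusted p = 0.00285) and the BMP signal mediator *Smad9* (1.45 ± 0.19, adjusted p = 0.00051) rose with them. *Id4*, a member of the BMP-responsive Id family, rose from 65.5, 120, 64.6 and 95.2 to 552, 985, 581 and 533 counts (log2 fold change 2.93, SE 0.25, adjusted p = 2.55e-05). *Id1* (0.74 ± 0.12, adjusted p = 0.00151), *Id2* (0.98 ± 0.15, adjusted p = 0.00137) and *Id3* (0.56 ± 0.16, adjusted p = 0.033) had libraries that did not overlap but changes under 1, and *Id2* passed 1, at 1.02 to 1.05, without replicate 2 of either Cre-neg dose or of GFP sgRNA in low CHIR. *Bmper*, a secreted BMP-binding protein, fell from 6222, 10344, 5679 and 10224 to 908, 1234, 497 and 699 counts (log2 fold change -3.31, SE 0.25, adjusted p = 9.86e-06).

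Fgf and ERK feedback genes gave no common direction. Of 19 tested, 2 were called higher and 3 lower, against 3.45% and 4.63% of all genes tested, and the median was -0.23. *Etv1*, an ETS factor downstream of Fgf, fell from 2595, 2856, 3174 and 3576 to 771, 603, 955 and 949 counts (log2 fold change -1.91, SE 0.13, adjusted p = 3.54e-06), and *Spry4*, an inhibitor of receptor tyrosine kinases, fell (-1.41 ± 0.19, adjusted p = 0.000643). The receptor *Fgfr2* rose (1.22 ± 0.22, adjusted p = 0.00421). The related *Etv4* (-0.48 ± 0.17, adjusted p = 0.0779), *Etv5* (-0.08 ± 0.14, adjusted p = 0.747), *Spry1*, *Spry2* and *Dusp6* (-0.23 ± 0.14, adjusted p = 0.317) were not called. The calls of the ligands *Fgf9* (1.13 ± 0.29, adjusted p = 0.0241) and *Fgf10* (-1.23 ± 0.36, adjusted p = 0.0426) rested on groups that overlapped. Leaving out any of 6 libraries ended the *Fgf9* call (0.92 to 1.11, adjusted p of 0.066 to 0.0812), as did edgeR (adjusted p = 0.0649). Leaving out any of 7 ended the *Fgf10* call (-0.93 to -1.38, adjusted p of 0.0577 to 0.106), as did edgeR (0.118) and DESeq2 (0.0727).

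Cell cycle genes did not move as a group. *Ccnd2*, a cyclin of the start of the cycle, rose from 4559.7, 5700, 8338 and 7730.4 to 41485, 41045, 40476 and 39609 counts (log2 fold change 2.67, SE 0.17, adjusted p = 2.49e-06), and its 4 high CHIR libraries lay within 2000 counts of one another. *Ccnd1*, *Ccnd3*, *Ccne1*, *Cdk4*, *Cdkn1a*, *Mycn* and the other tested genes of that list were not called, apart from *Myc*. Of 43 tested genes of S phase none was called by limma (median 0.07), where 3 had an adjusted p under 0.05 with changes under 1 in size, against 15.4% of all genes at that adjusted p. Of 54 genes of G2-M, *Pimreg* was called lower (-1.15 ± 0.17, adjusted p = 0.000938), at -0.97 without Cre-neg replicate 1 in low CHIR, and the median was -0.05. Over all genes tested, 3.45% rose and 4.63% fell.

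Most genes of the mesenchymal and epithelial lists were not called. Of 17 tested epithelial genes 3 rose and none fell (median 0.34), against 3.45% and 4.63% of all genes tested. The high CHIR libraries lay wholly above the low for 3 and wholly below for 2, against 9.32% and 10.8% of all genes tested. *Krt18*, a keratin of simple epithelia, rose from 32.2, 50.4, 50.7 and 35.7 to 169, 133, 166 and 212 counts (log2 fold change 1.99, SE 0.25, adjusted p = 0.000379), with *Cldn6* (1.21 ± 0.27, adjusted p = 0.0112) and *Cldn7* (1.20 ± 0.26, adjusted p = 0.0113), claudins of tight junctions. Both claudin calls were narrow: *Cldn6* was at 0.97 without both Cre-neg replicate 2 libraries and just under 1.00 without the low CHIR one, and *Cldn7* at 1.09 with an adjusted p of 0.0516 without GFP sgRNA replicate 2 in high CHIR. *Cdh1*, the cadherin of mature epithelia, was not called (-0.73 ± 0.49, adjusted p = 0.357), nor were *Epcam* and *Cdh16*. Of 14 tested mesenchymal genes 1 was called higher and 2 fell (median -0.58). By the adjusted p alone 5 were lower and 1 higher. For 5 the high CHIR libraries lay wholly below the low and for 1 wholly above, against 10.8% and 9.32% of all genes tested. *Zeb1* (-1.83 ± 0.16, adjusted p = 2.55e-05) and *Snai2* (-1.49 ± 0.20, adjusted p = 0.00045), repressors of epithelial genes, fell, and their relative *Snai1* was called higher (1.33 ± 0.33, adjusted p = 0.0214), a call lost without GFP sgRNA replicate 1 in high CHIR (adjusted p = 0.0619), without GFP sgRNA replicate 2 in low CHIR (0.0667), without Cre-neg replicate 2 in high CHIR (0.0557) and with edgeR (0.0597). *Cdh2* and *Cdh11*, cadherins of mesenchyme, were at -0.83 ± 0.15, adjusted p = 0.00333 and -0.73 ± 0.15, adjusted p = 0.00993, under the size threshold with libraries that did not overlap.

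The study's text names genes as predicted targets or outputs of β-catenin in high CHIR. Of 20 of these, a part of the study's predicted targets, 18 rose and none fell, with a median of 2.79. Over all genes tested, 3.45% rose and 4.63% fell. The study chose the 20 genes with the use of these samples, so their direction is not independent evidence. Beyond the members already named, *Vegfc*, a growth factor of lymphatic vessels (4.51 ± 0.27, adjusted p = 2.03e-06), *Dach1*, a corepressor that works with *Six2* and its relatives (3.62 ± 0.17, adjusted p = 5.82e-07), *Cux2*, a homeobox factor (2.04 ± 0.18, adjusted p = 3.02e-05), *Sox11*, an HMG-box factor (2.06 ± 0.18, adjusted p = 2.37e-05), and *Tgfa*, a ligand of the epidermal growth factor receptor (2.03 ± 0.22, adjusted p = 0.000112), rose. *Bach2* (0.49 ± 0.20, adjusted p = 0.126) was not called, and *Id2* was as given with the BMP genes.

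**Figure D2:**
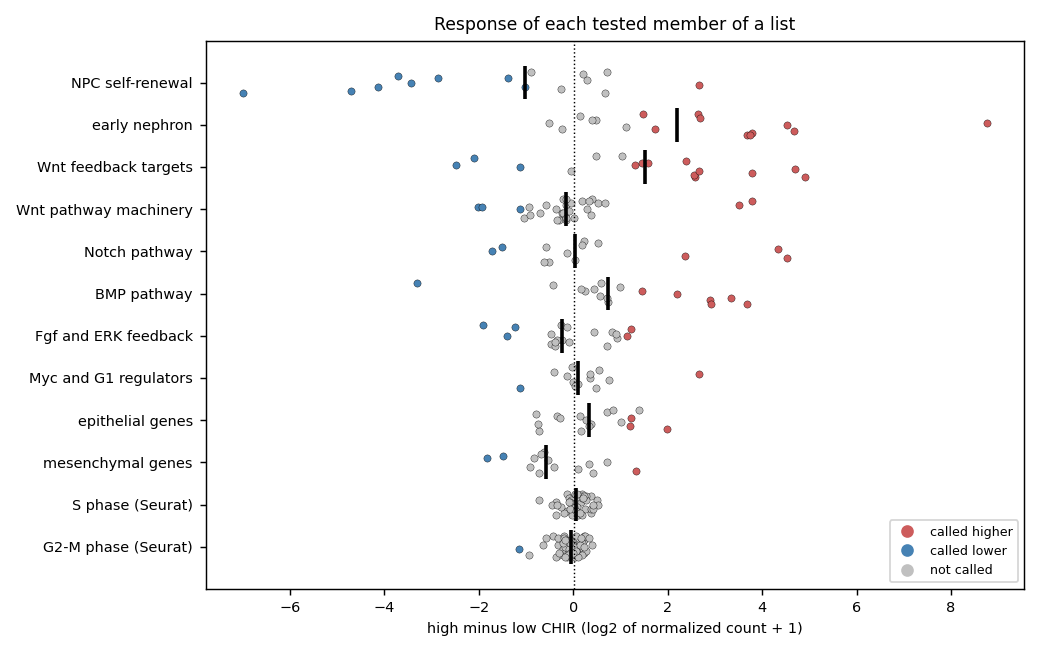
Log2 fold change of high against low CHIR for each tested gene of 12 lists, in red where called higher, blue where called lower and grey where not called. Thick black lines are list medians, from -1.02 for self-renewal genes to 2.19 for early nephron genes, and the dotted line is the median of all genes tested (0.01).

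The 12 largest increases, ranked among called genes whose doses did not overlap and whose mean was 50 or more, were led by *Wnt4*. Next came *AC141471.4*, a transcript without an assigned function, with 0, 0.916, 0 and 0 counts in low CHIR and 320.3, 495, 388 and 406 in high CHIR. Its 1767 reads in high CHIR against 1 give a ratio of 1570, with a 95% exact interval of 281 to 61800. *Psd2*, an exchange factor for Arf GTPases (7.07 ± 0.53, adjusted p = 8.81e-06), *Ffar4*, a receptor for long-chain fatty acids (6.41 ± 0.45, adjusted p = 5.58e-06), and *Cthrc1*, a secreted collagen-repeat protein (6.36 ± 0.40, adjusted p = 2.57e-06), followed. *Plet1*, a surface protein of epithelial progenitors, went from 47.8, 20.1, 78.5 and 33.5 to 3093, 1981, 4399 and 2313 counts (log2 fold change 6.10, SE 0.34, adjusted p = 1.28e-06), and *Padi2*, an enzyme that citrullinates proteins, from 12.2, 11.9, 33.8 and 9.74 to 1629, 524, 1258 and 919.9 (log2 fold change 5.97, SE 0.41, adjusted p = 4.8e-06). The doses were far apart for both. *Sv2b*, a protein of synaptic vesicles (3 reads in low CHIR and 603 in high CHIR), the serotonin-gated channel *Htr3a* (5.84 ± 0.33, adjusted p = 1.37e-06) and the nicotinic receptor subunit *Chrna6* (5.80 ± 0.49, adjusted p = 2.14e-05) were in the list too. The remaining genes, the lectin *Mgl2* (5.64 ± 0.42, adjusted p = 8.77e-06) and the tyrosine kinase *Syk* (5.56 ± 0.38, adjusted p = 5.07e-06), are best known from immune cells. *Ptprc*, which marks all leukocytes, averaged 1.49 counts in low and 0.447 in high CHIR. The globin genes *Hba-a1* (11.4 and 2.06) and *Hba-a2* (14.1 and 1.87) also had the lower mean in high CHIR. Other blood markers, *Lyz2* (0.271 and 4.10), *Csf1r* (3.04 and 4.48) and *Cd52* (0.964 and 2.74), had the higher mean there. All were under the filter, and a contribution of blood cells was not tested.

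The 12 largest decreases began with a growth factor. *Fgf1* had 2174, 2058, 3696 and 4213 counts in low CHIR and 7.36, 14.5, 16.5 and 0 in high CHIR (log2 fold change -8.71, SE 0.75, adjusted p = 2.52e-05), so that 1 high CHIR library had no read. *Il33*, an alarmin cytokine that is stored in the nucleus (chromosome 19, 29925114 to 29960718), had 18408, 14141, 19552 and 33122 counts in low CHIR and 99.4, 34.2, 206 and 263 in high CHIR (log2 fold change -7.42, SE 0.35, adjusted p = 5.56e-07). Both genes had 4 high CHIR libraries far below every low one. *Ch25h*, which makes 25-hydroxycholesterol, fell from 2793, 2429, 1671 and 2549 to 4.6, 21.8, 46.5 and 28.7 counts (log2 fold change -6.82, SE 0.49, adjusted p = 6.24e-06). The rest included the neurotensin receptor *Ntsr1* (-6.47 ± 0.45, adjusted p = 5.13e-06), the anion transporter *Slc26a7* (-5.45 ± 0.66, adjusted p = 0.000269), the metalloreductase *Steap4* (-5.28 ± 0.75, adjusted p = 0.000751), the channel *Asic4* (-5.22 ± 0.49, adjusted p = 4.47e-05) and the adhesion receptor *Adgrf5* (-5.20 ± 0.83, adjusted p = 0.0017). *Pla1a*, a secreted phospholipase (-5.53 ± 0.52, adjusted p = 4.18e-05), and *Ttc22* (-5.25 ± 0.67, adjusted p = 0.000395) completed the list with *Cited1* and *Gm26902*, which had 497 reads in low CHIR and 3 in high CHIR. Each of the 24 calls, increases and decreases, held in every alternative run for it.

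Both lines gave the response. Of the 378 genes called higher between the Cre-neg doses (2.27% of the genes tested), 98.1% were also higher in the GFP sgRNA libraries and 82.8% by at least 1 on the log2 scale. Of the 378, 259 were also called higher there. Over both lines, 50.7% of all genes tested had a log2 fold change above 0. The fold changes of the lines share no library, but the filter and the spread behind each call came from all 8 libraries. Of the 498 called lower (2.99%), 98.2% were lower in the GFP sgRNA libraries and 73.9% by at least 1, and 265 were also called lower there. Read the other way, 99.2% of the 356 genes called higher in the GFP sgRNA libraries (2.14%) and 99.5% of the 402 called lower (2.41%) had the same sign in the Cre-neg libraries. *Wnt4* rose by 8.52 in the Cre-neg line and 9.01 in the GFP sgRNA line, and *Jag1* by 4.61 and 4.44. *Cited1* was at -7.02 and -6.98.

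No gene was called for a difference in response between the lines by limma, where 731 genes (4.39%) had an unadjusted p under 0.05 and the smallest adjusted p was 0.903. edgeR and DESeq2 on recovered reads, which could use 7 of the 8 libraries, called none either, with 633 and 651 genes at an unadjusted p under 0.05. With 2 libraries per line and dose, the median SE of the difference was 0.48 over 45 tested genes of the self-renewal, early nephron and Wnt feedback lists. None of those genes was called, although the difference ran from -2.42 for *Emx2*, where 1 Cre-neg low CHIR library was at 0, to 2.45 for *Meox1*, and 2 genes had an unadjusted p under 0.05. *Six2* was among the genes with the wider gaps. It was at -2.04 in the Cre-neg line and -0.74 in the GFP sgRNA line, a difference of 1.29 ± 0.57 (adjusted p = 0.903 over all genes).

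**Figure D3:**
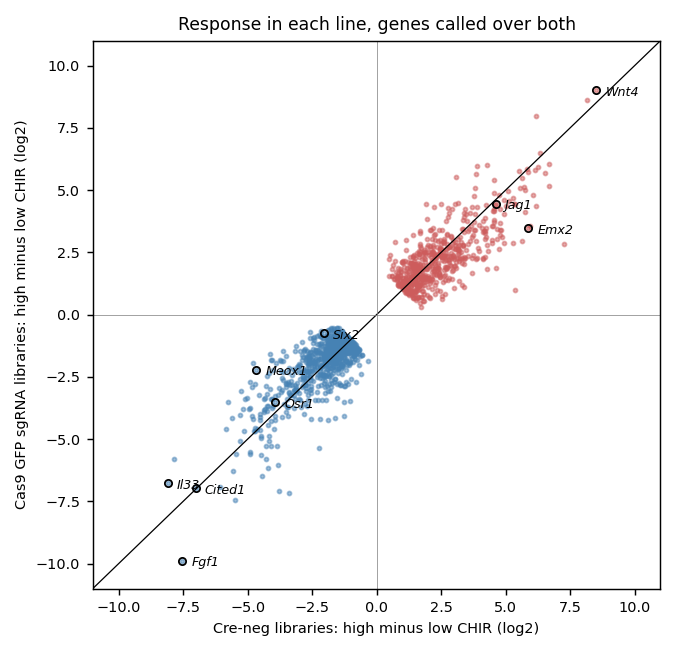
Log2 fold change of high against low CHIR in the GFP sgRNA libraries (vertical) against the Cre-neg libraries (horizontal) for the 575 genes that rose (red) and the 771 that fell (blue) over both lines, with equal response along the diagonal. The genes were chosen on the mean of both axes, so only their spread about the diagonal is shown. *Wnt4* and *Jag1* lie near the diagonal, *Meox1* above it and *Emx2* below it.

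The lines also differed in level at a given dose. Over both doses, 111 genes (0.667%) were higher in the GFP sgRNA line and 12 (0.0721%) lower. The first count fell to 64 without GFP sgRNA replicate 1 in high CHIR and to 69 without replicate 2 in low CHIR. *Plxna4*, a semaphorin receptor, had 8.88, 4.58, 111 and 206 counts in low CHIR and 2.76, 2.07, 48.7 and 70.8 in high CHIR, so the GFP sgRNA libraries were above the Cre-neg libraries at each dose (log2 difference 4.25, SE 0.39, adjusted p = 0.000515). *Ptprv*, a receptor-type phosphatase, differed by 3.77 ± 0.42, and the predicted gene *AI506816* by -2.08 ± 0.16. *Ftl1-ps2*, at 3.70 ± 0.16, is a pseudogene that can share reads with ferritin light chain, so its value is uncertain. Line, strain, allele and lipofected RNA cannot be told apart in this difference.

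The same cultures were also run with β-catenin removed, by Cre mRNA or by *Ctnnb1* sgRNAs, in 8 further libraries of the same table. Whether the response was larger with β-catenin intact was tested as the difference of the responses over all 16 libraries and 16780 genes. The response was more positive in the intact cells for 88 genes (0.524%) and more negative for 260 (1.55%). With the replicate number as a block within a line these counts were 182 and 470. Of 15 self-renewal genes 5 had a more negative response in intact cells, and of 16 early nephron genes 4 had a more positive one. With these same libraries the study named *Cited1*, *Tmem100*, *Meox2*, *Osr1*, *Wnt4*, *Jag1* and *Ccnd2* for a change on β-catenin removal in high CHIR. Its predicted targets or outputs, such as *Lef1*, *Cux2* and *Vegfc*, were chosen with them too. The differences given here and below for these genes and their lists are therefore not independent evidence. *Osr1* had 1669, 1966, 1349 and 1649 counts in low CHIR and 1765, 2512, 1063 and 1759.5 in high CHIR in the removed libraries, ordered Cre, Cre, *Ctnnb1* sgRNA and *Ctnnb1* sgRNA, with doses that overlapped. Its response was 0.05 ± 0.23 there against -3.72 in intact cells, a difference of -3.76 ± 0.33 (adjusted p = 2.31e-05). *Cited1* still fell in the removed libraries, by 2.01 on the log2 scale (adjusted p = 0.00426), which left 2479, 1855, 1956 and 2261 counts in high CHIR, and the difference was -4.99 ± 0.44 (adjusted p = 2.72e-05). *Meox2* (-4.17 ± 0.26, adjusted p = 3.82e-06), *Tmem100* (-3.84 ± 0.31, adjusted p = 1.24e-05) and *Crym* (-3.37 ± 0.60, adjusted p = 0.00737) differed in the same direction.

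In the removed libraries, 0.757% of genes were called higher and 0.191% lower in high CHIR. *Wnt4* and *Jag1* were among those that rose there. *Wnt4* had 12.4, 6.44, 17.4 and 11.9 counts in low CHIR and 479, 720, 1240.4 and 847 in high CHIR in the removed libraries, a rise of 5.97 ± 0.31 (adjusted p = 7.01e-07) against 8.76 in intact cells. The difference was 2.80 ± 0.44 (adjusted p = 0.00283). *Jag1* rose by 2.62 in the removed libraries (difference 1.91 ± 0.28, adjusted p = 0.00193), while *Lef1* was at 1.30 ± 0.32, adjusted p = 0.0808 there (difference 2.48 ± 0.45, adjusted p = 0.00854). *Ccnd2* (1.85 ± 0.20, adjusted p = 0.000161), *Krt18* (1.84 ± 0.33, adjusted p = 0.00797), *Cux2* (2.06 ± 0.21, adjusted p = 8.3e-05) and *Vegfc* (2.76 ± 0.47, adjusted p = 0.00492) also had larger rises in intact cells. *Sp5* and *Notum* were called for the difference as well (3.86 and 2.74), but not with edgeR, DESeq2 or a pseudocount of 0.5, and not in most fits without 1 library, nor was *Notum* with the replicate block (adjusted p = 0.071). *Hey1* had 205, 130, 487 and 385 and 1802, 1147, 3117 and 3134 counts in low and high CHIR after removal, with no difference called (-0.61 ± 0.30, adjusted p = 0.421), and neither *Heyl* (-0.02 ± 0.73, adjusted p = 0.996) nor *Bmp2* (0.90 ± 0.34, adjusted p = 0.266) was called.

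Falls that were at or near 0 after removal were found in signaling genes too. *Bmper* was at -0.02 ± 0.24 in the removed libraries (difference -3.28 ± 0.34, adjusted p = 9.19e-05), *Fzd4* at 0.21 ± 0.20 (difference -2.23 ± 0.28, adjusted p = 0.000523) and *Etv1* at -0.27 ± 0.11 (difference -1.64 ± 0.15, adjusted p = 3.89e-05). *Tcf7l1* (-1.60 ± 0.24, adjusted p = 0.00188) and *Zeb1* (-1.67 ± 0.21, adjusted p = 0.000483) had differences of the same sign. Over the lists, the median response was -1.02 in intact and -0.27 in removed libraries for self-renewal genes, 2.19 and 0.88 for early nephron genes, and 1.51 and 0.75 for Wnt feedback genes. The BMP list stood at 0.73 and 0.69. The intact side of these pairs is the same 8 libraries as above. Removal lowered β-catenin in a population of cells, and a smaller response in every cell cannot be told apart from a full response in the cells that kept the protein.

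**Figure D4:**
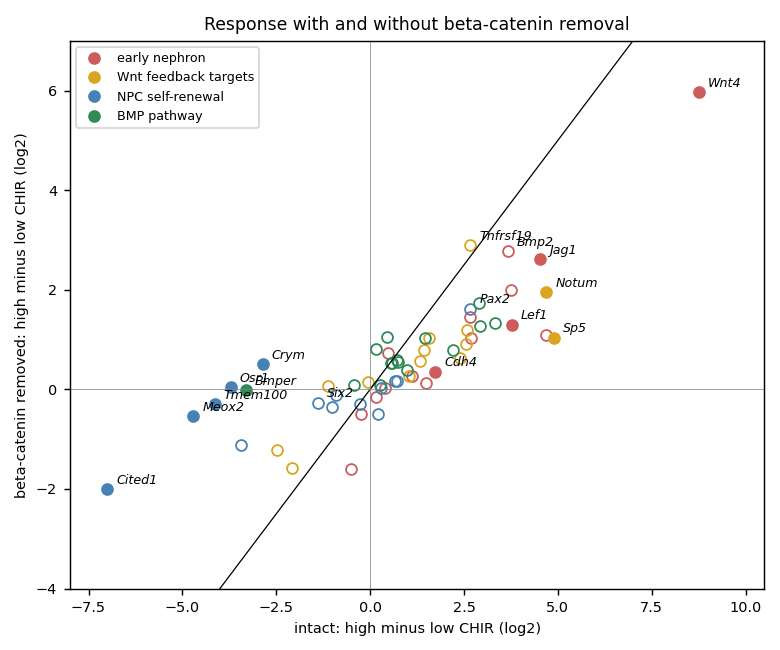
Log2 fold change of high against low CHIR in β-catenin-removed libraries (vertical) against intact libraries (horizontal) for the tested genes of 4 lists, filled where the difference was called and open where not. A gene in more than 1 list is drawn in the colour of the first. *Osr1*, *Meox2* and *Tmem100* lie far left and near 0 on the vertical axis, while *Wnt4* and *Jag1* rise on both.

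Other experiments of the series gave the same comparison of doses in cells with no shared library, in tables that were normalized separately, so the values are set side by side without a test. The wild-type cultures had 6 libraries at these doses and the GFP sgRNA controls of the Tcf/Lef experiment, which were kept in low CHIR for longer before the doses were set, had 6. Of the genes that rose here and were tested in the wild-type table, 235 were called higher there (background 3.99%), which is 43.2% of those here and 40.4% of those there. For genes that fell it was 301 (40.1% and 49.9%), with 3.61% of all genes called lower there. The Tcf/Lef controls shared 384 higher genes (71.5% and 55.6%) and 447 lower genes (62.7% and 56.7%), where 4.76% of all genes were called higher and 5.11% lower. *Six2* fell further in both, by 5.40 ± 0.15 in wild-type cells and 3.34 ± 0.33 in the Tcf/Lef controls, against 1.39 ± 0.33 here. The median over the 15 self-renewal genes was -3.27 in the wild-type cells, -2.10 in the Tcf/Lef controls and -1.02 here.

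For some genes the fitted value changed sign, or lay near 0, in another table. *Hey1* was at -0.87 ± 0.39 and *Heyl* at 0.31 ± 0.67 in the wild-type cells, against 2.38 and 4.33 here and 1.94 and 5.44 in the Tcf/Lef controls. *Bmp2* was at -0.28 in the wild-type cells, against 3.67 here and 2.95 in the Tcf/Lef controls. The BMP list had a median of -0.01 in the wild-type cells and 0.16 in the Tcf/Lef controls, against 0.73 here. Its members *Bmp7* (3.58 and 4.67) and *Bmpr1b* (2.36 and 2.83) were positive in both. *Snai1*, called higher here, had a negative value in both. *Lgr5* was at 0.47 ± 0.29 in the wild-type cells and -0.50 ± 0.33 in the Tcf/Lef controls, and *Dkk1* at 0.27 ± 0.87 and -0.57 ± 1.28. *Wnt4* rose in all 3 tables, by 8.76 here, 4.50 in wild-type cells and 6.95 in the Tcf/Lef controls. *Axin2* was higher by 2.83 ± 0.65 in the wild-type cells and 2.14 ± 0.32 in the Tcf/Lef controls, against 1.58 ± 0.27 here. Of the genes called here, 10 that rose and 11 that fell had the opposite call in the wild-type table, and 1 and 1 in the Tcf/Lef controls. The labels of the wild-type cells name no lipofected RNA, and strain, handling and run cannot be told apart between the tables.

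**Figure D5:**
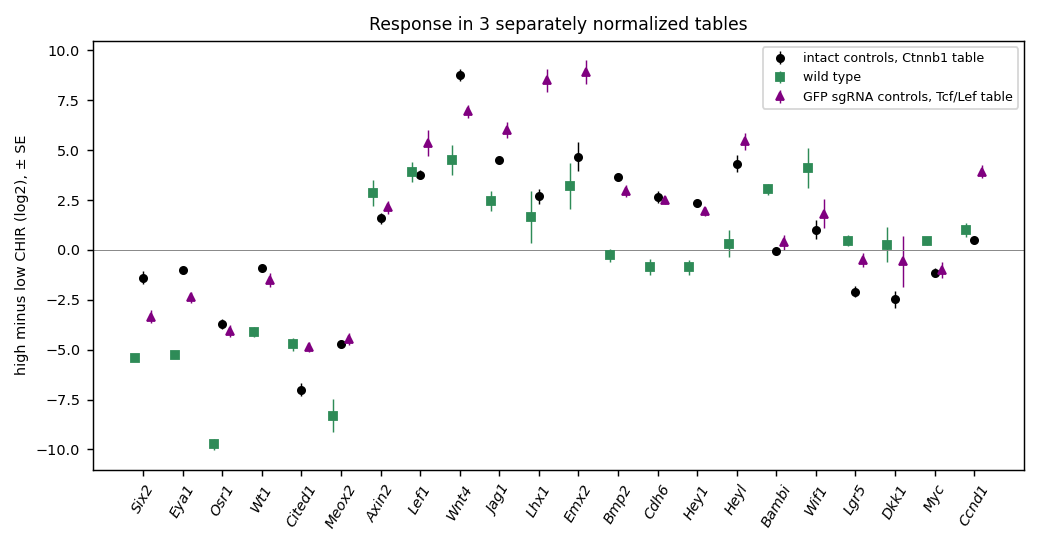
Log2 fold change of high against low CHIR, ± SE, for 22 genes in the intact controls (black circles), the wild-type cells (green squares) and the GFP sgRNA controls of the Tcf/Lef experiment (purple triangles). *Wnt4* is far above 0 in every table and *Six2* is least negative in the intact controls.

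Markers of other kidney cells were read for what the cultures could hold besides NPCs. Of 10 tested stromal markers none was called by limma at either threshold of size, and their summed counts were 5594 to 23890 in low CHIR and 5969 to 19940 in high CHIR, highest in GFP sgRNA replicate 1 at each dose. None of 5 tested ureteric markers was called, but their sums did not overlap, at 486 to 773 in low CHIR and 933 to 1170 in high CHIR. By the adjusted p alone 1 was higher. The high CHIR libraries lay wholly above the low for 2 and wholly below for 1, against 9.32% and 10.8% of all genes tested. With 3.45% of all genes called higher and 4.63% lower, no call in lists this short lies near those shares. Blood markers and markers of the proximal tubule and distal nephron stayed near 0 or were not called. *Plvap*, a protein of fenestrated endothelium, fell from 1079, 474, 508 and 529 to 59.8, 50.8, 122 and 65.1 counts (log2 fold change -3.10, SE 0.33, adjusted p = 9.81e-05). It was the only one of 8 endothelial markers in the table to pass the filter, and the markers summed to 504.5 to 1103 counts in low CHIR and 90.0 to 181 in high CHIR. *Plvap* made up most of the sum in every library, so the lower sum restates its fall and does not show a fall of the other markers. The defining marker *Kdr* averaged 9.05 and 0.749 counts in low and high CHIR and *Cdh5* 2.8 and 0.989, while *Pecam1* (3.75 and 7.75), *Tek* (3.38 and 14.6) and *Flt1* (4.47 and 9.03) had the higher mean in high CHIR. Of 4 tested podocyte markers *Synpo* was called lower (-2.55 ± 0.67, adjusted p = 0.0264), with doses that overlapped and the call lost in 6 of 8 fits without 1 library. In sorted bulk cells, fewer cells of a type and less RNA per cell cannot be told apart.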

How the data were processed

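RNA-seq reads were, per the study's methods, aligned with STAR against mouse (GRCm38) and human (GRCh38) assemblies together, and uniquely aligned reads were counted per gene with featureCounts. The signal that the authors deposited is a normalized count, reads on a gene divided by a DESeq2 size factor. Replicates were not pooled. Tables of the authors' own comparisons, which hold fold changes and p-values, were not used, nor were the 50 per-sample columns in them. Libraries were grouped by their labels. Some listed genes are not reported here by name.

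Values were tested on log2(normalized count + 1) with limma 3.58.1 (variance trend, line as block, R 4.3.3) for genes with a mean of at least 10, with Benjamini-Hochberg adjustment over all genes tested. Called genes had an adjusted p under 0.05 and a log2 change of at least 1. The difference between lines was the interaction term, and the difference from β-catenin-removed cells a contrast over 16 libraries. Each deposited value was a whole number of reads (within 0.01) times a constant for its library, so edgeR 4.0.16 and DESeq2 1.42.0 were run on recovered reads as alternatives. A library in which 1 read is worth about 1 normalized count cannot be told from rounding and was left out, which left 7 of 8 and 14 of 16 libraries. Libraries of a group differed by more than counting noise (chi-square per degree of freedom of 19.4 to 87.5), and none were identical. S phase and G2-M genes came from Seurat 5.3.0. Promoters came from RefSeq (GRCm38.p6). The scripts were tested on simulated data. Intervals cover counting error only.

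The members, gene lists and rules were chosen with earlier results of these data known. Named genes were those of the lists, the 12 largest increases and decreases among called genes with a mean of at least 50 and no overlap between doses, and the 6 largest differences of each sign between lines and from removed cells. Pseudocount, filter, scaling (TMM), line term, replicate block, libraries and size threshold were varied.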

Additional observations from a re-analysis of the deposited data

Results flagged for a closer look

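All flagged results are differences of the response to high CHIR between intact and β-catenin-removed libraries, tested with limma over 16 libraries with Benjamini-Hochberg adjustment. The response was more positive in intact cells for 88 genes and more negative for 260, or for 182 and 470 with the replicate number as a block within a line. Among the 6 largest positive differences, *Htr3a* differed by 3.89 on the log2 scale (adjusted p = 0.000284), *Sv2b* by 3.77 (0.00651), *AC141471.4* by 3.60 (0.00983), *Cthrc1* by 3.28 (0.00745), *Hpca* by 3.03 (0.0217) and *Crabp2* by 2.97 (0.0203). The fitted values of *Sv2b* and *AC141471.4*, which had 3 and 1 reads in the intact low CHIR libraries, depend on the pseudocount. With edgeR, *Cthrc1* (adjusted p = 0.0727), *Hpca* (0.129), *Sv2b* (0.2) and *AC141471.4* (1) were not called, nor were *Sv2b* (0.118) and *AC141471.4* (0.285) with DESeq2. The *Hpca* call was lost in 7 of the 16 fits without 1 library, at 2.64 to 2.87 (adjusted p of 0.0545 to 0.0678), and the *Crabp2* call in 5, at 2.73 to 2.97 (0.052 to 0.0607).

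*Crabp2*, a retinoic acid binding protein, had 234, 71.4, 304 and 305 counts in low CHIR and 999.7, 509, 1737 and 2256 in high CHIR in the intact libraries, and 313, 76.0, 471 and 478 and 214, 89.9, 319 and 289 in the removed libraries (Cre, Cre, *Ctnnb1* sgRNA, *Ctnnb1* sgRNA). It was higher with dose in every intact pair of groups, while the removed libraries overlapped (response -0.40 ± 0.44, adjusted p = 0.818).

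The 6 largest negative differences were *Fgf1* at -7.59 (adjusted p = 0.00024), *Ch25h* at -6.50 (6.61e-06), *Olfml2a* at -6.43 (2.31e-05), *Rgs4* at -6.05 (1.24e-05), *Gm26902* at -5.67 (2.56e-05) and *Slc26a7* at -5.59 (0.000963), and each was called in every alternative run for it. *Olfml2a*, a secreted matrix protein, had 139, 79.7, 118 and 237 counts in low CHIR and 3.68, 5.19, 1.5 and 6.7 in high CHIR with β-catenin intact, against 231, 139, 235 and 366 and 709.8, 396, 714 and 1330 after removal. *Rgs4*, a regulator of G protein signaling, had 242, 224, 64.6 and 231 and 4.6, 3.11, 5.99 and 5.74 counts with β-catenin intact, against 708, 518, 258 and 461 and 1401, 1021, 704 and 1109.9 after removal. For both genes the fitted response was negative in intact libraries and positive in removed libraries (1.64 ± 0.40, adjusted p = 0.0707 and 1.17 ± 0.34, adjusted p = 0.158).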

How the results depend on the processing

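Counts of called genes kept within 1.5 times of those reported under most alternatives, and no result changed sign. High against low CHIR gave 515 higher and 632 lower genes with edgeR, 643 and 744 with DESeq2, and 1041 and 1352 at a log2 change of at least 0.5. Without 1 library the counts were 461 to 622 and 604 to 759. The difference in response between lines stayed at 0 to 0 genes in each direction without 1 library, and with all 16 libraries in the fit 1 gene was lower, *Nxph1* (chosen after its values were seen), with 197 and 373 counts in GFP sgRNA low CHIR, 3 and 1.91 in high CHIR and 0 in the Cre-neg libraries (-6.32, adjusted p = 0.0248). The difference between lines in level gave 64 to 109 higher and 8 to 17 lower genes without 1 library. It was 64 without GFP sgRNA replicate 1 in high CHIR and 69 without replicate 2 in low CHIR. The difference between intact and removed cells gave 56 to 97 and 195 to 263 genes without 1 library, with 56 without GFP sgRNA replicate 2 in high CHIR, and 145 higher genes with DESeq2. For these settings the cause was not tested.

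The labels give groups the same replicate numbers without saying what they share. Deviations of same-numbered libraries correlated between doses at 0.36 (Cre-neg), 0.20 (GFP sgRNA), 0.52 (Cre) and 0.14 (*Ctnnb1* sgRNA), but between the intact lines at -0.25 in low and 0.11 in high CHIR, so a number was taken as shared within a line at most. With the replicate number as a block within a line, high against low CHIR gave 703 higher and 896 lower genes, the difference between lines in response gave 0 and 0, and that between intact and removed cells gave 182 and 470. *Sp5*, *Notum*, *Sv2b* and *AC141471.4* in low CHIR and *Gm26902* in high CHIR had 1 to 3 reads over 4 libraries, so counting error limits their fold changes.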

Other observations

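Genes of metabolism and of stress responses were mostly not called between the doses. Over all genes tested 3.45% rose and 4.63% fell, so few or no calls in lists of this size lie near those shares. Of 15 tested glycolysis genes none was called by limma (median -0.18), with *Hk2*, hexokinase 2, at 0.58 ± 0.14, adjusted p = 0.0193 and *Gapdh* at 0.07 ± 0.26, adjusted p = 0.895. Of 20 genes of cholesterol synthesis none was called either (median -0.03), while *Ch25h*, which acts on the product, had fallen. Of 17 tested interferon response genes none was called (median 0.05), and their summed counts were highest in GFP sgRNA replicate 1 at each dose, at 3044 and 3426 against 971.1 to 1912 in the other libraries.

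Of 14 tested p53 target genes 1 was called higher and 1 fell (median -0.20), against 3.45% and 4.63% of all genes tested. *Fas*, a death receptor, went from 99.9, 134, 151 and 177 counts in low CHIR to 19.3, 21.8, 51.7 and 23.9 in high CHIR, and the doses did not overlap (log2 fold change -2.31, SE 0.29, adjusted p = 0.000375). *Pmaip1*, which encodes the apoptosis factor Noxa, had 7.77, 60.4, 6.95 and 19.5 and 59.8, 168, 113 and 156 counts, with doses that overlapped in 1 library (log2 fold change 2.76, SE 0.62, adjusted p = 0.0127). It was not called with edgeR (adjusted p = 0.0762). *Cdkn1a* (0.36 ± 0.17, adjusted p = 0.193) and *Mdm2* (0.22 ± 0.13, adjusted p = 0.306), which p53 induces most widely, were not called.

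Among the largest differences in level between the lines were the non-coding entries *AC151289.1*, at 4.43 ± 0.89 higher in the GFP sgRNA line, and *A230056P14Rik*, at -3.53 ± 0.40. The *AC151289.1* call was lost in 9 of 12 alternatives, with a pseudocount of 0.5 (adjusted p = 0.0653), with no filter (0.0741), at a mean of at least 50 (0.0579) and in 6 of 8 fits without 1 library (0.0724 to 0.149). *Ifi203*, an interferon-inducible gene, differed by 3.85 ± 0.70 (adjusted p = 0.0278), a call lost in 5 of 8 fits without 1 library (adjusted p of 0.0588 to 0.111). *Tnni1*, a troponin of slow muscle, was lower in the GFP sgRNA line (-1.91 ± 0.24, adjusted p = 0.00312).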
